A study of Mus musculus with 8 samples.

Results

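The Clca genes (calcium-activated chloride channel accessory genes) were followed in purified Paneth cells, the granule-filled cells at the base of the small intestinal crypts that secrete antimicrobial proteins. The 7 mouse members, Clca1, Clca2, Clca3a1, Clca3a2, Clca3b, Clca4a and Clca4b, were taken by gene symbol from a table of 55414 Ensembl gene IDs, and all 7 were in the table. The family itself was chosen by its measured zinc against water differences in these libraries. The differences between zinc and water within the family are therefore given as a description, and any count of calls among the members is read as no more than that.

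The animals were C57BL/6J mice that drank Milli-Q water for 7 days, either plain or with 25 mM zinc sulphate (ZnSO4). Each group held 4 libraries, called water 1 to 4 and zinc 1 to 4 after the replicate numbers in the labels. A cell suspension of the small intestine was sorted by fluorescence for Paneth cells, and a stranded mRNA library was sequenced from their total RNA. The sources used here do not give the age or the sex of the mice in each group, and no other agent or allele separated the groups.

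Clca proteins were first described as chloride channels and were later found to be secreted or membrane-anchored proteins that cleave themselves with a zinc-dependent protease domain. Clca1 is the best known of them in the gut: goblet cells release it into mucus, where it processes the gel-forming mucin Muc2. Clca2 is known from stratified and glandular epithelia, and Clca3a1 and Clca3a2 are closely related mouse genes whose human counterpart is no longer functional.

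The codons of the HExxH zinc-binding motif of the protease domain were found once in the coding sequence of 6 members and at 2 places in Clca2. The motif first began at codon 155 in Clca3a1, Clca3a2 and Clca3b, at codon 156 in Clca1, at codon 157 in Clca4a and Clca4b, and at codon 164 in Clca2, and in all 7 canonical transcripts it lay in exon 4. The sequences are shown because this site is the feature by which the family can be called metalloproteases. Each line gives 51 bases of the coding strand from the GENCODE M39 transcripts, 5′ to 3′, with the 15 motif bases in capitals and 6 codons on either side. The first codons of each line come from the preceding exon.
Clca3a1: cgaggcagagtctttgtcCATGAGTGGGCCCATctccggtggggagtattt
Clca3a2: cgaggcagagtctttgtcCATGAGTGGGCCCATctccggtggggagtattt
Clca3b: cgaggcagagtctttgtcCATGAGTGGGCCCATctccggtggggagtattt
Clca4b: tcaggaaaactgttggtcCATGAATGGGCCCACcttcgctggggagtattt
Clca4a: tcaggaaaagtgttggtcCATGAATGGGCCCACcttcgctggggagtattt
Clca1: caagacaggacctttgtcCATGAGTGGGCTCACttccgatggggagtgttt
Clca2: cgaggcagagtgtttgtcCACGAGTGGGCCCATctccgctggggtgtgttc

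The 7 genes carried 4 distinct motif sequences. Clca3a1, Clca3a2 and Clca3b were identical over all 51 bases, and Clca4a and Clca4b shared the 15 motif bases. In the GRCm39 build the motif bases of Clca3b were at chr3:144552203-144552217 and those of Clca1 at chr3:144730364-144730378, both in coding exon sequence on the minus strand.

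All 7 members lie side by side on the minus strand of chromosome 3, in a cluster of 369.8 kb from 144435438 to 144805204 (GRCm39). In chromosomal order they are Clca3a1 (144435438 to 144466738), Clca3a2 (144502320 to 144525255), Clca3b (144528227 to 144555118), Clca4b (144616682 to 144638290), Clca4a (144658241 to 144680806), Clca1 (144709578 to 144738537) and Clca2 (144776024 to 144805204). The annotation gave 15 merged exons for Clca1 and Clca2 and 14 for each of the others. The nearest protein-coding genes are Sh3glb1, which encodes an endophilin of membrane traffic and autophagy, before Clca3a1, and Odf2l beyond Clca2.

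Coding sequences fell into 2 close groups of neighbours, with Clca1 and Clca2 apart from both. Clca3a1 and Clca3a2 were identical at 97.08% of the columns of their coding alignment, gaps included, and Clca4a and Clca4b at 96.04%. Clca3b shared 74.87% with Clca3a2 and 74.77% with Clca3a1, and the other pairs ran from 52.55% to 61.06%. The coding sequence of Clca3b has 3132 bases, and gaps against the shorter members lower all its percentages. Of the 2706 coding bases of Clca3a2, 2348 were identical in Clca3b. This matters for the counts, because the sources used here do not say how reads that fit several genes were counted. Of all 75-base windows of a member's transcript, 98.2% in Clca3b were found in no other transcript of the cluster, and in Clca1 and Clca2 every window was. The share was 87.4% for Clca4b, 85.7% for Clca3a1, 85.3% for Clca3a2 and 75.1% for Clca4a. Low counts of Clca4a beside an abundant Clca4b, and of Clca3a1 beside Clca3a2, are therefore uncertain.

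**Figure D1:**
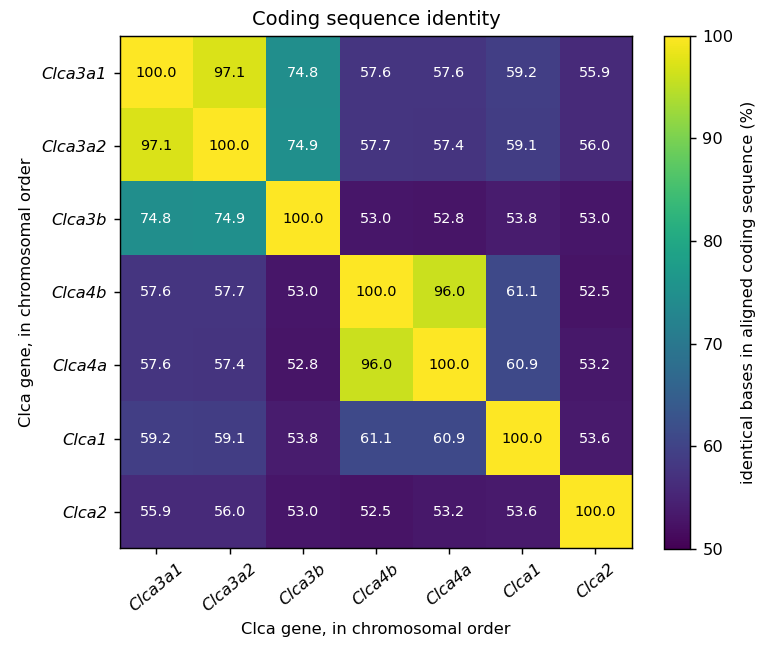
Heat map of identical bases as a percentage of all columns, gaps included, in pairwise alignments of the coding sequences. The 7 genes are in chromosomal order on both axes, with colour from 50% to 100%. The 2 bright blocks off the diagonal are Clca3a1 with Clca3a2 (97.08%) and Clca4a with Clca4b (96.04%), and Clca3b stands at about 75% from the first of these pairs.

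The libraries held 20760764 to 24117111 counts. Levels are given as CPM, counts scaled to a common library size with TMM factors, and where a gene had no count, up to 3 counts could have been missed, which is 0.115 to 0.188 CPM (counting error only). The 8 Paneth cell markers, among them Lyz1 and the defensin genes Defa24 and Defa30, summed to 361820 to 709330 CPM in water and 342340 to 704390 CPM in zinc. The 12 goblet cell markers summed to 9223 to 15664 CPM in water and 11358 to 14746 CPM in zinc. The 15 enterocyte markers summed to 525 to 636 and 510 to 658 CPM, with 7 of them, including Alpi, Fabp1, Apoa1 and Lct, under 1 CPM on average. The 8 tuft cell markers summed to 17.8 to 143 and 23.9 to 100 CPM, the 8 enteroendocrine markers to 42.5 to 109 and 45.0 to 88.0 CPM, and the 6 stem cell markers to 4566 to 5947 and 3230 to 4668 CPM. Stromal markers (10 genes) summed to at most 0.831 CPM, endothelial markers (5 genes) to at most 1.23 CPM and leukocyte markers (7 genes) to at most 1.22 CPM. Acta2, Myh11, Col1a1, Cdh5, Kdr, Cd3e and Itgax were at 0 in every library. In such bulk samples, fewer cells of a type and less RNA per cell cannot be told apart.

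Per length, Clca3b was the leading member by a wide margin. Levels per length are CPM per kb of merged exon, averaged over the 8 libraries. Clca3b stood at 211 CPM per kb, followed by Clca4b at 25.8, Clca1 at 15.1 and Clca3a2 at 1.40 CPM per kb. The Clca1 mean rests on the replicates numbered 4, and was 8.22 CPM per kb without water 4, 12.5 without zinc 4 and 4.13 without both. Clca4a (0.124 CPM per kb), Clca3a1 (0.122) and Clca2 (0.00213) came far below these.

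Clca3b and the next members did not overlap in any pair of libraries: its lowest library was 4.00 times the highest library of Clca4b and 2.38 times the highest of Clca1. The mean level of Clca3b was 8.17 times that of Clca4b, 14.0 times that of Clca1 and 150 times that of Clca3a2. Its ratio to Clca1 was 23.7 without water 4, 17.3 without zinc 4 and 48.55 without both. Clca4b and Clca1 overlapped, since Clca1 ran from 1.46 to 63.0 CPM per kb and Clca4b from 10.5 to 37.5. Clca3a2, at 0.732 to 2.29 CPM per kb, lay below every library of Clca4b but overlapped the lowest library of Clca1. Over the 8 libraries pooled, Clca4a and Clca3a1 did not differ beyond their spread, and their order turned when the longest transcript was used as the length (0.124 against 0.125 CPM per kb). By group their order was opposite, from low counts. Clca4a and Clca3a1 stood at 0.241 and 0.0859 CPM per kb in water, where they overlapped, and at 0.00658 and 0.158 in zinc, where they did not.

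**Figure D2:**
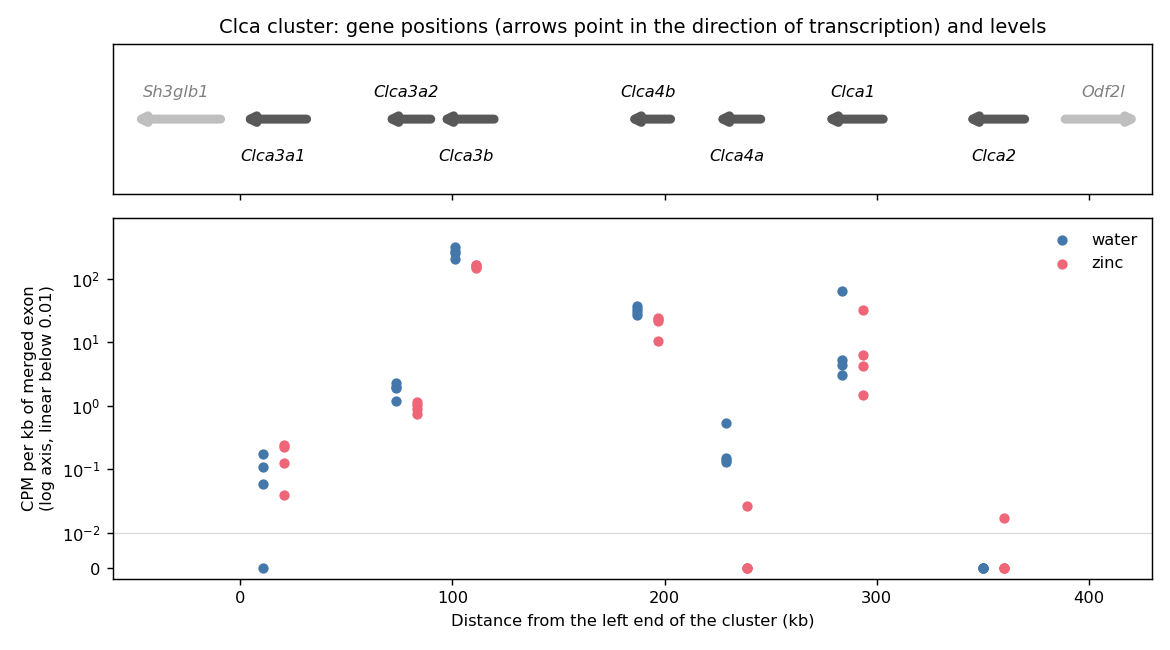
Map of the Clca cluster on a scale of distance from its left end in kb, with arrows in the direction of transcription, over a plot of each library's level in CPM per kb of merged exon on a log axis that is linear below 0.01 (water in blue, zinc in red). Clca3b, at 150 to 320 CPM per kb, stands above its neighbour Clca3a2 in every library.

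RefSeq promoter windows (GRCm38.p6, 250 bases before to 50 after the start) of Clca2, Clca3a1, Clca3b and Clca4b were searched for short motifs on both strands. The core of the metal response element, the site of the zinc-sensing factor Mtf1, was searched as TGCACNC or TGCGCNC. It was in 25.7% of all 32851 promoters of the same length and in 0 of these 4 windows. TATAAA, in 13.62% of promoters, was found 2 times in Clca4b and in none of the other 3. CTTTGAT, the core bound by Wnt-regulated Tcf/Lef factors and present in 3.73% of promoters, was in none of the 4. A match or its absence describes the letters of these windows only.

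Clca3b (ENSMUSG00000037033) made up most of the family in every library. It stood at 718, 903, 970 and 1126 CPM in water 1 to 4 and at 527, 572, 541 and 574 CPM in zinc 1 to 4. Every zinc library lay below every water library, and the zinc libraries were much closer together than the water libraries. The means were 930 ± 169 CPM in water and 554 ± 23.1 CPM in zinc (SD, n = 4), a log2 fold change of -0.75 with a standard error of 0.15 in edgeR. On library totals alone the groups overlapped, at 548 to 1366 CPM in water and 408 to 703 CPM in zinc, where water 1 was the lowest water library. Within water, the library with the highest Paneth marker sum, water 1, had the lowest Clca3b and the one with the lowest sum, water 4, the highest. Within zinc the same held for zinc 1 and zinc 4, which had the lowest and the highest Clca3b, though the values spanned only 527 to 574 CPM, and the part of the marker sum in these values was not tested. The 6 stem cell markers summed to 4566, 5218, 5178 and 5947 CPM in water 1 to 4 and to 4668, 4019, 3654 and 3230 CPM in zinc 1 to 4, a sum that is mostly Olfm4, a secreted glycoprotein of crypt base stem cells, at 4082 to 5484 CPM in water and 2799 to 4150 CPM in zinc. The other 5 stem markers, Lgr5, Ascl2, Smoc2, Axin2 and Rgmb, summed to 463 to 515 CPM in water and 431 to 529 CPM in zinc, with log2 fold changes of -0.24 to 0.06 beside -0.48 for Olfm4, and the part of these cells was not tested.

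Clca4b (ENSMUSG00000074195), the second member by level, stood at 79.9, 99.1, 112 and 88.9 CPM in water 1 to 4 and at 64.1, 72.5, 70.2 and 31.5 CPM in zinc 1 to 4. All zinc libraries were below all water libraries, with zinc 4 well under the other 3. The means were 95.1 ± 13.9 and 59.6 ± 19.0 CPM (SD, n = 4) and the log2 fold change was -0.68 with a standard error of 0.23. Without zinc 4 the log2 fold change was -0.47. On library totals alone these groups overlapped as well, at 61.0 to 120 CPM in water and 38.6 to 73.7 CPM in zinc.

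Clca3a2 (ENSMUSG00000028262) was low, at 8.01, 4.73, 7.70 and 9.09 CPM in water 1 to 4 and 2.91, 4.49, 4.03 and 3.61 CPM in zinc 1 to 4. The groups did not overlap, but water 2 came within a small margin of zinc 2. The means were 7.38 ± 1.87 and 3.76 ± 0.671 CPM (SD, n = 4), a log2 fold change of -0.97 with a standard error of 0.23. On library totals the groups remained apart, at 4.80 to 11.0 CPM in water and 2.25 to 4.48 CPM in zinc.

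Clca1 (ENSMUSG00000028255), the mucus protease of goblet cells, behaved differently from the 3 genes above. It stood at 11.4, 16.6, 19.7 and 238 CPM in water 1 to 4 and at 5.52, 16.1, 24.3 and 124 CPM in zinc 1 to 4. The replicate numbered 4 was far above the rest in both groups, and the groups overlapped throughout. Water 4 was 15 times the mean of water 1 to 3, and zinc 4 was 8.09 times the mean of zinc 1 to 3. The means of 71.4 ± 111 and 42.4 ± 54.8 CPM (SD, n = 4) thus rest on 1 library each, and the log2 fold change of -0.75 had a standard error of 1.39. It was 1.41 without water 4, -2.22 without zinc 4 and -0.05 without both, so no direction was held.

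The remaining members were close to 0. Clca4a (ENSMUSG00000068547) had 26, 9, 10 and 12 counts in water 1 to 4 and 0, 0, 2 and 0 counts in zinc 1 to 4. All water libraries were above all zinc libraries, and water 1 had more counts than any other library. The 57 counts in water and 2 in zinc gave a library-scaled ratio of 28.4 (exact 95% interval 7.50 to 240), an interval that covers counting error only. Clca4a did not pass the low-count filter. Its sequence is 96.04% identical to that of Clca4b, which had 8569 counts in water and 5172 in zinc.

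Clca3a1 (ENSMUSG00000056025), the near copy of Clca3a2, had 0, 16, 10 and 6 counts in water 1 to 4 and 16, 10, 22 and 4 counts in zinc 1 to 4. These groups overlapped, and the log2 fold change of 0.79 had a standard error of 0.73. Clca2 (ENSMUSG00000036960) had 2 counts in zinc 3 and 0 in the other 7 libraries. It did not pass the filter, and both groups were at or under the limit that a count of 0 allows.

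**Figure D3:**
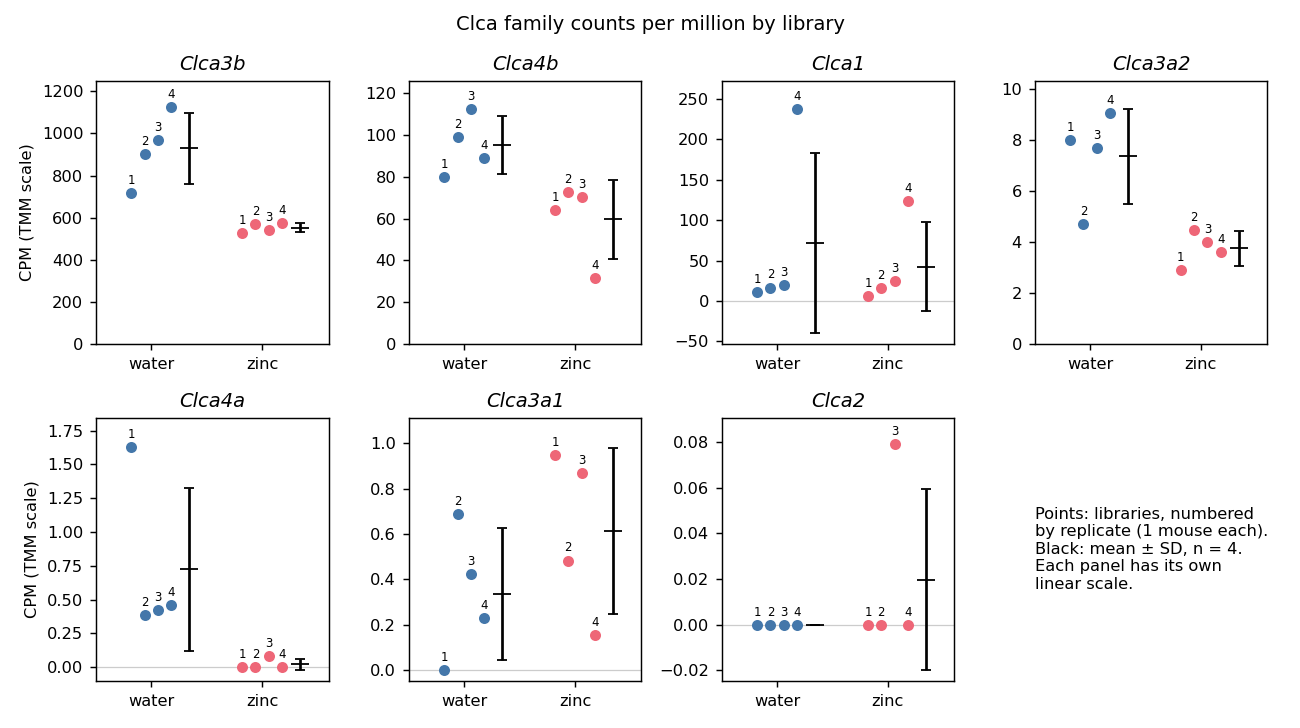
CPM on the TMM scale of each of the 7 Clca genes in the 4 water (blue) and 4 zinc (red) libraries, numbered by replicate, with the mean ± SD in black and a separate linear scale in each panel. Zinc points lie below all water points for Clca3b, Clca4b, Clca3a2 and Clca4a, and the replicates numbered 4 stand apart for Clca1 at 238 and 124 CPM.

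Of the 7 members, 5 passed the low-count filter of edgeR. The count past an adjusted p of 0.05 was 0 of 5 in edgeR's quasi-likelihood test, against 0.0834% of all 11988 genes tested. At an unadjusted p of 0.05 edgeR had 3 of the 5 (Clca3b, Clca4b and Clca3a2), against 4.65% of all genes tested. After adjustment DESeq2 called 2 of the 4 members to which it gave an adjusted p (Clca3b and Clca3a2), against 0.284% of its genes, and limma-voom called 0 of 5, against 0.0918%. With no filter edgeR called 4 of 7 (Clca3b, Clca4b, Clca3a2 and Clca4a), against 0.317% of 20836 genes. All zinc libraries lay below all water libraries for 3 of the 5 tested members, against 1.59% of all genes tested. Clca4a, which was not tested, had its groups apart as well. On library totals alone only Clca3a2 and Clca4a had zinc below water without overlap, and the share of all genes on that scale was not computed. The contrast was used in choosing the family, and nothing is read from these counts.

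The median log2 fold change of the 5 tested members was -0.75, with 4 below 0 and 1 above. Over all 11988 genes tested the median was 0.01, the 5th percentile was -0.48 and the 95th was 0.37. The family was chosen by this contrast, so its place among these percentiles is a description only. Leaving out 1 library at a time, Clca3b ran from -0.86 to -0.65, Clca4b from -0.78 to -0.47 and Clca3a2 from -1.14 to -0.85. Clca3a1 ran from 0.44 to 1.36, and Clca1 alone crossed 0.

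**Figure D4:**
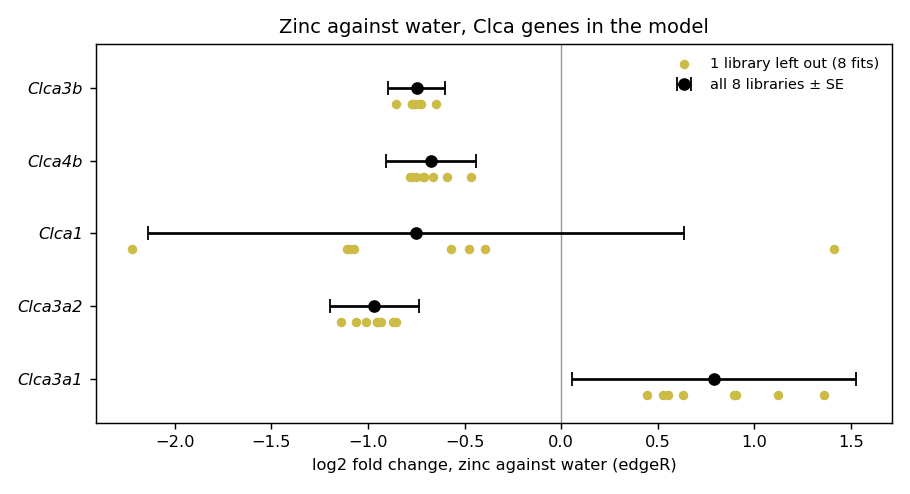
Log2 fold change, zinc against water, of the 5 Clca genes in the edgeR model, with the fit to all 8 libraries ± standard error in black and the 8 fits that each leave out 1 library in yellow. Clca3b, Clca4b and Clca3a2 stay below 0 in all fits, and Clca1 ranges from -2.22 to 1.41.

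The family as a whole held 0.0625%, 0.104%, 0.118% and 0.177% of all counts in water 1 to 4 and 0.0465%, 0.0664%, 0.0672% and 0.0898% in zinc 1 to 4. These shares overlap, since zinc 2 to 4 exceeded water 1. Their Wilson 95% intervals were narrow, at 0.0615% to 0.0636% in water 1 and 0.176% to 0.179% in water 4, and cover counting error only. On the TMM scale the summed level was 1105 ± 269 CPM in water and 660 ± 55.6 CPM in zinc (SD, n = 4), a ratio of 0.597. That sum was carried by Clca3b.

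Within the family, the shares of the leading genes overlapped between the groups. Clca3b took 85.0% ± 5.38 of the summed CPM in water and 84.1% ± 4.10 in zinc (SD, n = 4), and Clca4b took 8.90% ± 1.89 and 9.21% ± 3.27. The replicates numbered 4 differed from the others: Clca1 was 16.3% of the family in water 4 and 16.9% in zinc 4, against 0.919% to 3.79% in the other 6 libraries. Clca3b was 12.7 times Clca4b in water 4 and 18.2 times in zinc 4, against 7.70 to 9.11 times elsewhere.

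Clca1 varied between libraries together with some goblet cell products but not others. Zg16, a lectin-like protein of goblet cell granules, stood at 12.6, 25.3, 16.6 and 82.1 CPM in water 1 to 4 and 8.25, 20.4, 17.7 and 172 CPM in zinc 1 to 4. Fcgbp, a large mucus protein that binds Muc2, stood at 624, 851, 746 and 1305 CPM in water and 401, 681, 1022 and 1636 CPM in zinc. Both genes were highest in replicate 4 of each group, as Clca1 was.

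Muc2 itself, the gel-forming mucin, was at 2174, 2336, 1738 and 1702 CPM in water and 2186, 2165, 2013 and 3085 CPM in zinc. Tff3, the goblet cell trefoil peptide, was at 1216, 705, 633 and 825 CPM in water and 833, 676, 596 and 851 CPM in zinc. In water 4, Muc2 was the lowest of its group while Clca1 was the highest. Of the 12 goblet markers, 9 were highest in zinc 4 within zinc and 2 were highest in water 4 within water. The largest single part of their sum is Spink4, which was lowest in replicate 4 of each group, at 4750 and 5825 CPM. Without Spink4 the other 11 summed to 8079 CPM in zinc 4, against 4824 to 5108 CPM in zinc 1 to 3, and to 5471 CPM in water 4, inside the 4248 to 6008 CPM of water 1 to 3. Tuft cell markers summed to 143 CPM in water 4, above the other water libraries, and to 76.2 CPM in zinc 4, inside the range of the others. The part of these cell types in the Clca1 values was not tested.

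**Figure D5:**
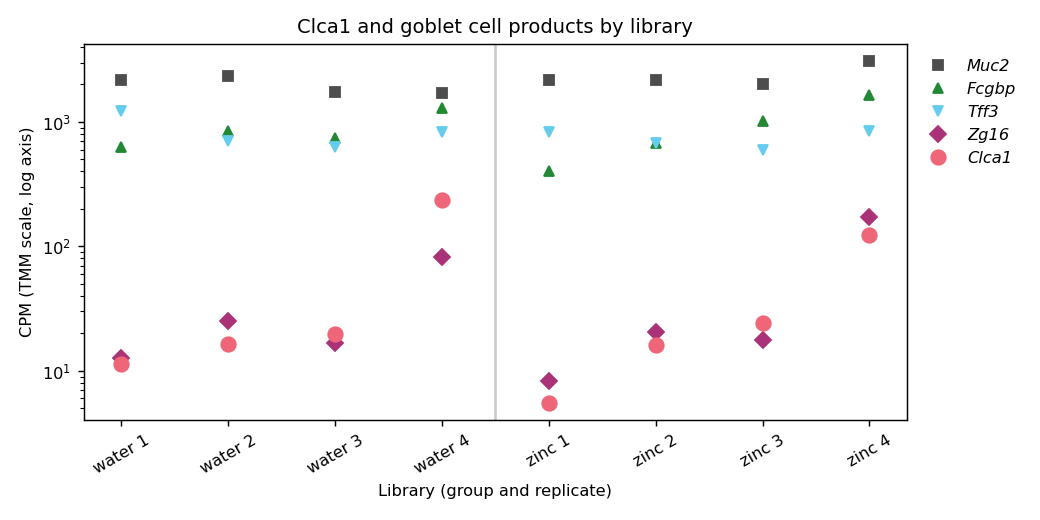
CPM on the TMM scale, on a log axis, of Clca1 and of Muc2, Fcgbp, Tff3 and Zg16 in each of the 8 libraries, with a line between water and zinc. Clca1, Zg16 and Fcgbp are highest in replicate 4 of both groups, while Muc2 is at its lowest in water 4 (1702 CPM) and Tff3 at its highest in water 1 (1216 CPM).

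The partners of Clca proteins in the mucus layer were taken as a list of 59 genes, which covered mucins, their binding and folding partners, proteases and cross-linkers, anion transport, O-glycosylation and regulators of mucous cells. Of these, 58 were in the table and 51 passed the low-count filter. The count past an adjusted p of 0.05 was 0 of 51 in edgeR's quasi-likelihood test, against 0.0834% of all genes tested, and 0 in DESeq2, against 0.284% of its genes. At such shares a count of 0 says nothing particular about the list. Under an unadjusted p of 0.05 in edgeR were 3 (of 51), a share near the 4.65% of all genes tested. The median log2 fold change was 0.02, with 24 genes below 0 and 27 above, beside 0.01 over all genes tested.

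The 3 genes with the smallest p were Nlrp6, an inflammasome sensor of goblet cells, at -0.35 with a standard error of 0.12, Retnlb, a bactericidal goblet cell protein, at -3.05 with 1.01, and Creb3l1, a transcription factor of secretory cells, at 0.36 with 0.16. The Retnlb mean in water rests largely on water 1, at 93.2 CPM, where the rest of the water group had 5.23 to 17.5 CPM and zinc 2.61 to 7.01 CPM. The log2 fold changes of the main mucus genes were 0.25 with a standard error of 0.19 for Muc2, 0.08 with 0.44 for Fcgbp, 0.67 with 1.15 for Zg16 and -0.19 with 0.19 for Tff3. Agr2, the protein disulphide isomerase needed for mucin folding, was at 0.17 with 0.32, and Ano1, a calcium-activated chloride channel, at -0.07 with 0.69. None of these 6 passed the test.

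The 2 genes that flank the cluster were not lower in zinc on average. Sh3glb1 stood at 99.7 ± 15.8 CPM in water and 104 ± 12.3 CPM in zinc (SD, n = 4), with overlapping groups and a log2 fold change of 0.06 with a standard error of 0.13. Odf2l was at 3.37 ± 0.792 and 4.56 ± 0.249 CPM (SD, n = 4), with all zinc libraries above all water libraries on this scale, overlap on library totals, and a log2 fold change of 0.43 with a standard error of 0.24. Neither passed the test over all genes in edgeR, and the difference between these genes and Clca3b was not tested.

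The variation between libraries of 1 group was compared by the Pearson correlation of log2 CPM over the 8 libraries, after the group means were removed. The points share library depth and cell make-up, and the values are a description. Among the 4 members with a mean of at least 1 CPM, Clca1 and Clca3b had r = 0.70, Clca3b and Clca4b 0.05, and Clca1 and Clca4b -0.55.

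By the same measure, over all tested genes outside the family, Clca3b was most like Kif26b (r = 0.99, Spearman's rho = 1.00), a kinesin family gene, Ccar2 (0.99, 0.93) and AA986860 (0.98, 0.95). Without the 2 libraries farthest from the median, r was 0.98, 0.90 and 0.82. In all such reduced values the removed group means were still those of all 8 libraries. The reduced r and rho also used a slightly different constant added to CPM before the log. Clca1 was most like Scin (r = 0.99, rho = 1.00), an actin-severing protein, Oser1 (0.98, 0.98) and Pole3 (0.98, 0.95), and without water 4 and zinc 4 r was 0.98, 0.92 and 0.88.

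Clca4b was most like Slc16a13 (r = 0.98, rho = 0.93), a monocarboxylate transporter family gene, the ubiquitin ligase gene Ubr1 (0.97, 0.95) and Rnf220 (0.97, 0.93), with r of 0.94, 0.94 and 0.92 when the 2 farthest libraries were left out. Clca3a2 was most like the autophagy gene Atg9a (r = 0.98, rho = 1.00), Serpini1 (0.98, 0.91) and Neto2 (0.97, 0.98), with r of 0.89, 0.91 and 0.90. These are the extremes of all tested genes over 8 points, and no 2 members had a gene in common.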

How the data were processed

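Paneth cell RNA of 4 water and 4 zinc mice was measured. The authors deposited raw, unnormalized counts of reads, by Ensembl gene, for all 8 libraries in 1 table. The submitters' processing notes list FastQC 0.12.0, STAR 2.7.0a, DESeq2 and build mm39. The sources used here do not give the counting program, annotation, strand setting or treatment of multi-mapping reads. Gene IDs were matched to GENCODE M39 on GRCm39 (54749 of 55414 IDs, at least 99.9938% of counts). No 2 libraries of 1 group were alike within sampling noise.

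The groups were compared in edgeR 4.0.16 under R 4.3.3 (TMM, default low-count filter with minimum count 10, robust quasi-likelihood F test, treatment only), with Benjamini-Hochberg adjustment over all genes tested. Alternatives were DESeq2 1.42.0, limma-voom 3.58.1, RLE factors, library totals only, no filter, a mean count of at least 50, a replicate block and each library left out. Leaving out both replicates numbered 4 was chosen after seeing the data. Coding sequences were aligned with Biopython 1.88.

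The members and lists were chosen with earlier results of these data known. Named were all 7 members, Muc2, Fcgbp, Zg16, Tff3, Agr2, Ano1, list members past the threshold or else the 3 with the smallest p, the 3 genes most like each member with a mean of at least 1 CPM, and the flanking genes. Marker genes were named outside this rule. Planned protein alignments were replaced by coding sequences. Some promoter sequence was not used here.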

Additional observations from a re-analysis of the deposited data

Results flagged for a closer look

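In a test of each group of 4 libraries for a highest or lowest library far from the other 3 (Dixon's 95% criterion), 9 of 33 groups stood out. Among them, 2 groups had counts in only 1 library, which meets the criterion by construction. Of the other 31 groups 7 stood out. The criterion's rate of 1 in 20 holds for independent, normally spread groups. These groups are chosen genes in shared libraries, so the count is not compared with that rate. Clca1 was at 238 CPM in water 4, where water 1 to 3 had 11.4 to 19.7 CPM, and at 124 CPM in zinc 4, where zinc 1 to 3 had 5.52 to 24.3 CPM. Zg16, at 172 CPM in zinc 4 against 8.25 to 20.4 CPM, Muc2, at 3085 CPM in zinc 4 against 2013 to 2186 CPM, and the chloride channel gene Ano1, at 3.96 CPM in zinc 4 against 0.276 to 0.676 CPM, stood out in the same zinc library. Retnlb was at 93.2 CPM in water 1 where water 2 to 4 had 5.23 to 17.5 CPM. Clca4a was at 1.63 CPM in water 1 against 0.387 to 0.458 CPM. Clca4a and Clca2 were both at 0.0790 CPM in zinc 3, which is 2 counts each, against 0 in the other zinc libraries.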

How the results depend on the processing

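The number of genes past the threshold over all genes tested was 10 in the edgeR fit, 34 in DESeq2, 66 with no low-count filter and 32 with the replicate block, and from 1 (without water 2) to 15 (without zinc 1) with 1 library left out. It was 4 without water 3 and 3 without zinc 2. The replicate block brought 1 mucus layer gene past the threshold, Muc4, against 0 otherwise. The labels do not say what a replicate number marks. The correlation of deviations from the group means was 0.23, 0.13 and 0.26 for numbers 1, 3 and 4, whose libraries each correlated best with their own number, and 0.00 for number 2, whose libraries did not. The block was planned as an alternative because the labels give the numbers no meaning, and it stayed one. The Clca1 log2 fold change of -0.75 ranged from -2.22 to 1.41 with 1 library left out, and the summed Clca ratio of 0.597 ranged from 0.550 to 0.670.

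The contrast that chose the family also gives its p-values, so those that follow describe the settings and support nothing. Clca3b, whose adjusted p was 0.0819 in edgeR, passed the threshold in DESeq2 (1.55e-05), with no filter (4.89e-05), with the block (0.000827) and without water 1 (0.0146). With 1 of the other libraries left out its adjusted p ran up to 0.449. It did not pass with library totals only (0.844), RLE factors (0.0770), a mean count of at least 50 (0.090) or limma-voom (0.0772). The cause was not tested. Depth limits what can be said of Clca4a, Clca3a1 and Clca2, and 4 libraries per group limit the rest.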
